A study of Arabidopsis thaliana with 12 samples.

Results

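PRK, SBPASE, CHLM and AT1G74470 are 4 nuclear genes of Arabidopsis thaliana for plastid enzymes, of which PRK and SBPASE act in the Calvin cycle and CHLM and AT1G74470 in the synthesis of chlorophyll. Each was measured by 1 array probe that the platform annotation gives to a single gene: probe 3151 for PRK (locus AT1G32060), probe 1517 for SBPASE (AT3G55800), probe 2091 for CHLM (AT4G25080) and probe 2360 for AT1G74470. They are 4 of 692 single-gene probes among 3439 probes in all. They were chosen by pathway, with earlier results of these data known. All 4 were above 0 in every sample and were tested. The RNA came from wild-type plants of the Landsberg ecotype. The names come from the Columbia reference.

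All 12 samples had received 500 µM the nitrile herbicide bromoxynil, which stops photosynthetic electron flow at photosystem II. In the dark group (n = 6) the treated plants were kept dark for 12 h. In the light group (n = 6) they went through such a dark period and were then lit for 30 min. The comparison asks how transcript levels differ after a short return of light while the herbicide is present, and herbicide-free plants were not analysed here. The labels name no tissue and do not say whether samples came from separate plants, so a p-value here reflects sample-to-sample spread alone, and that spread may be technical. The antenna gene LHB1B2, a marker of green tissue, lay at the 99.1 percentile of mean brightness on the array. The markers LHCB1.3 and PSBS were on no single-gene probe.

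The Calvin cycle fixes carbon dioxide in the chloroplast stroma with the ATP and NADPH made by the light reactions. SBPASE, sedoheptulose-1,7-bisphosphatase, removes a phosphate in the part of the cycle that rebuilds its carbon dioxide acceptor, and PRK, phosphoribulokinase, makes that acceptor, ribulose bisphosphate. Both enzymes are switched on in light through thioredoxin, which draws its electrons from the photosynthetic chain. CHLM, magnesium protoporphyrin IX methyltransferase, acts in the magnesium branch of chlorophyll synthesis, and AT1G74470 encodes the geranylgeranyl reductase that makes the phytyl side chain of chlorophyll and of tocopherol. Arrays measure transcripts and say nothing of enzyme activity.

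The light samples 1 and 2 stood apart from the other 10. Their deposited median intensities were 3.88 and 3.90, against 0.559 to 0.654 in the other samples, and their brightest spots had 48.2 and 47.6 where every other sample had 100. The values below are therefore log2 intensities after quantile normalisation, which gives all samples the same distribution, and the changes and ratios of the 4 genes are given also without light 1 and 2. A level on this scale may be compared between samples for 1 probe, and not between probes. The spread is the SD over samples, and the error of a change is its standard error in limma.

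PRK was the member with the largest difference, and it was higher in light in 6 of 6 sample numbers after normalisation. In number 1 the log2 difference was only 0.02. Its normalised log2 intensity in the dark had a lowest value of -1.35, a median of -1.19 and a highest value of -0.66 (mean -1.13 ± 0.25, SD, n = 6). In light these values were -1.03, -0.77 and -0.55 (mean -0.78 ± 0.18, SD, n = 6). Dark 1, at -0.66, was the brightest dark sample and lay within the light range, and the other 5 dark samples were at or below -1.09, under every light sample. The log2 change of PRK was 0.35 ± 0.13 (95% CI 0.07 to 0.63), a 1.27-fold higher level in light (1.05 to 1.54). It did not pass the test over all probes (limma adjusted p 0.173, unadjusted p 0.0190). In RNA of whole samples, more cells that express a gene and more RNA per cell cannot be told apart.

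SBPASE showed no common direction over the sample numbers, with 3 higher and 3 lower in light. In the dark its normalised log2 intensity had a lowest value of -0.25, a median of 0.04 and a highest value of 0.26 (mean 0.02 ± 0.18, SD, n = 6). In light the values were -0.39, -0.11 and 0.15 (mean -0.12 ± 0.25, SD, n = 6). The groups overlapped over most of their range. The 3 lowest of the 12 values were light 5, light 6 and dark 5, and the highest was dark 3. The log2 change was -0.14 ± 0.13 (95% CI -0.42 to 0.14, limma adjusted p 0.585). The interval for light over dark ran from 0.746-fold to 1.10-fold.

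CHLM had nearly the same mean level in both groups and the widest spread of the 4 genes. In the dark its normalised log2 intensity had a lowest value of -0.42, a median of 0.01 and a highest value of 0.31 (mean -0.01 ± 0.27, SD, n = 6). In light the values were -0.56, 0.02 and 0.49 (mean 0.00 ± 0.41, SD, n = 6). Light 1 and light 2, at 0.39 and 0.49, were the 2 highest of all 12 samples, and light 5 was the lowest. The log2 change was 0.01 ± 0.19 (95% CI -0.41 to 0.43, limma adjusted p 0.988), so a level in light between 0.750-fold and 1.35-fold of that in the dark lay within the interval. Without light 1 and 2 the change was -0.21 (limma adjusted p 0.544), and its sign turned.

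AT1G74470, the geranylgeranyl reductase, had the narrowest spread of the 4 genes. Its normalised log2 intensity in the dark had a lowest value of 0.58, a median of 0.69 and a highest value of 1.05 (mean 0.77 ± 0.20, SD, n = 6). In light the values were 0.75, 0.90 and 1.004 (mean 0.89 ± 0.11, SD, n = 6). All 6 light samples lay inside the dark range, which dark 5 and dark 6, at 1.05 and 0.99, extended upward. The log2 change was 0.12 ± 0.10 (95% CI -0.10 to 0.34, limma adjusted p 0.557), with 4 sample numbers higher and 2 lower in light. An increase above 1.27-fold was outside the interval.

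**Figure D1:**
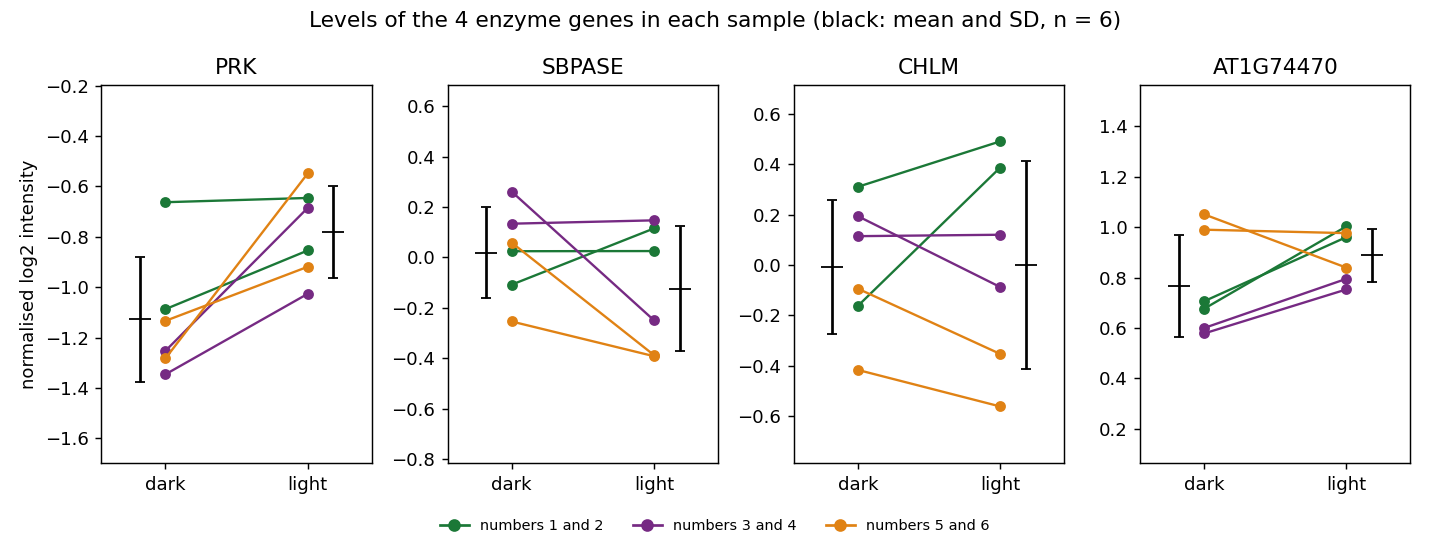
Normalised log2 intensity (vertical axis) of each of the 4 genes in the dark and in light, 1 panel a gene, each panel spanning 1.5 log2 units. Lines join samples of the same number, coloured by numbers 1 and 2, 3 and 4, or 5 and 6, and black marks give the mean and SD (n = 6). All 6 PRK lines run upward, that of number 1 by only 0.02, while the lines of the other 3 genes run both ways.

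The deposited intensities, on their linear scale, give the levels before scaling, and for all 4 genes they order the samples otherwise. On that scale PRK in number 6 was lower in light (0.348) than in the dark (0.354). In every other number it was higher in light. For PRK they ran from 0.321 to 0.492 in the dark and from 0.338 to 0.463 in light 3 to 6, and were 2.92 and 2.49 in light 1 and 2. For SBPASE they ran from 0.627 to 0.911 in the dark and from 0.510 to 0.775 in light 3 to 6. CHLM had 0.557 to 0.940 in the dark and 0.460 to 0.756 in light 3 to 6, and AT1G74470 had 1.13 to 1.51 and 1.20 to 1.39. For all 4 genes light 1 and 2 were the highest samples on that scale, as the medians over all probes were.

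None of the 4 genes passed the test, where 96 of 3381 tested probes (2.84%) did. One of the 4, PRK, had an unadjusted limma p under 0.05, as 18.9% of all tested probes did. Groups did not overlap for 4.55% of tested probes, and overlapped for all 4 genes. PRK alone of the 4 differed in 1 direction in all 6 sample numbers, which 21.7% of tested probes did (11.1% of all tested probes higher and 10.6% lower in light). The median log2 change of the 4 genes was 0.06, against 0.02 over all tested probes. The change of PRK lay at the 85.6 percentile of all changes, and 28.4% of tested probes differed by at least as much in either direction. SBPASE, CHLM and AT1G74470 lay at the 28.8, 48.8 and 64.3 percentiles.

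The precision of these changes followed from the spread between samples. The SD within groups was 0.16 for AT1G74470, 0.22 for PRK and for SBPASE and 0.35 for CHLM, against a median of 0.30 over all tested probes. In mean brightness PRK was at the 28.2 percentile of tested probes, SBPASE at the 58.1, CHLM at the 59.8 and AT1G74470 at the 85.7. Brightness depends on the probe as well as on the transcript, so this places each signal on the array and does not rank the transcripts.

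**Figure D2:**
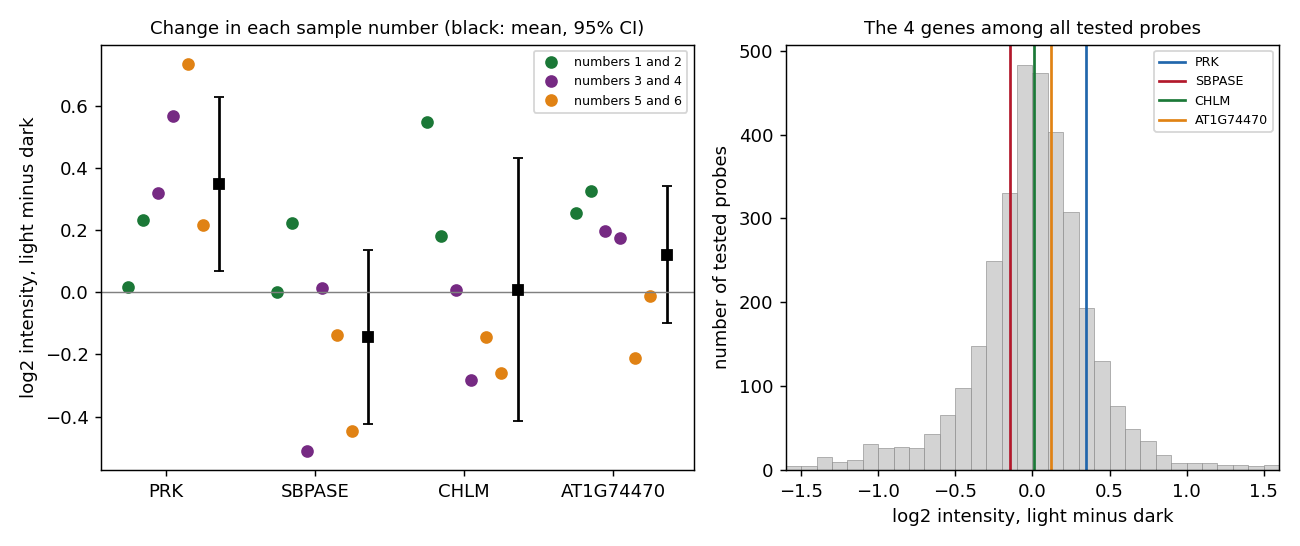
Left, log2 intensity in light minus dark for each sample number (coloured points) and the mean change with its 95% CI from limma (black) for the 4 genes. Right, the number of tested probes by log2 change, drawn from -1.6 to 1.6, with the 4 genes as lines. The PRK interval lies above 0, the other 3 intervals include 0, and the 4 lines lie between -0.14 and 0.35.

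The change differed between sample numbers. Samples of the same number deviated together across the groups. Numbers 1 and 2, 3 and 4, and 5 and 6 of a group resembled each other (consensus correlation 0.669 over all tested probes), so the changes are given by these pairs of numbers. The log2 change of PRK was 0.12 in the first pair (numbers 1 and 2), against 0.44 for numbers 3 and 4 and 0.47 for numbers 5 and 6. The change of SBPASE was 0.11 in the first pair and -0.25 and -0.29 in the other pairs. That of CHLM was 0.36 in the first pair, then -0.14 for numbers 3 and 4 and -0.20 for numbers 5 and 6.

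All 4 genes had a positive change in numbers 1 and 2, the pair that holds light 1 and 2. There the median over all tested probes was 0.10 and their quartiles were -0.26 and 0.45, and all 4 genes lay between these quartiles. In the other pairs of numbers PRK lay at the 93.3 and 91.5 percentiles of all changes. SBPASE lay at the 14.9 and 16.6 percentiles there. The changes of AT1G74470 were 0.29, 0.19 and -0.11 in the 3 pairs, with both negative values in numbers 5 and 6, where its dark samples were the brightest. Differences between the pairs of numbers were not tested.

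Because light 1 and 2 stood apart, the fit was repeated without numbers 1 and 2 of both groups. The change of PRK was then 0.44 ± 0.11 (limma adjusted p 0.0977), SBPASE of -0.27 ± 0.15 (limma adjusted p 0.417), CHLM of -0.17 ± 0.18 (limma adjusted p 0.671) and AT1G74470 of 0.04 ± 0.13 (limma adjusted p 0.920). None of the 4 passed. With all 12 samples the change of AT1G74470 was 0.12. When only light 1 and 2 were left out, the changes were 0.32 for PRK (limma adjusted p 0.264), -0.24 for SBPASE (limma adjusted p 0.379) and 0.07 for AT1G74470 (limma adjusted p 0.758).

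A ratio of 2 genes within a sample asks whether they changed unequally, and a factor that multiplies a whole sample cancels in it. All 6 pairs of the 4 genes were compared by an exact permutation test over the samples (two-sided, Benjamini-Hochberg adjusted over the 6 pairs). The widest difference was between the Calvin cycle genes PRK and SBPASE. The log2 ratio of PRK over SBPASE in the dark had a lowest value of -1.61, a median of -1.11 and a highest value of -0.69 (mean -1.15 ± 0.32, SD, n = 6). In light the values were -0.97, -0.72 and -0.16 (mean -0.66 ± 0.29, SD, n = 6). The groups overlapped. The ratio was higher in light by 0.49 on the log2 scale (standard error 0.18 from the group SDs), or 1.40-fold, in 6 of 6 sample numbers (95% interval of the exact permutation test 0.11 to 0.88). The exact p was 0.0173 before adjustment and 0.104 after it, so the pair did not pass. This permutation test treats all samples as exchangeable and takes no account of the likeness within pairs of numbers. The ratios were not tested with pairs of numbers averaged or as a random block, so the interval may be too narrow and the p too small. The same limit holds for the ratios of the other genes and for the ratio tests with samples left out.

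The ratio of PRK over SBPASE split by sample number. It changed by 0.02 and 0.01 in numbers 1 and 2, where both genes differed between light and dark by nearly the same amount. In numbers 3, 4, 5 and 6 it changed by 0.83, 0.55, 0.87 and 0.66. Without light 1 and 2 the difference was 0.57 (exact permutation adjusted p 0.143), and without numbers 1 and 2 of both groups, a setting chosen after the data were seen, it was 0.73 (exact permutation adjusted p 0.171, where the smallest unadjusted p that 4 samples a group allow is 0.0286). On unscaled values it was 0.39 (exact permutation adjusted p 0.312). Without dark 1 the difference was 0.58 and the exact permutation adjusted p 0.0260, the only pass among the 12 leave-one-out fits. In the other such fits the exact permutation adjusted p ran from 0.0909 (without light 2) to 0.234 (without light 5). The setting without numbers 1 and 2 of both groups also leaves out dark 1, and there the ratio did not pass.

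No other pair passed either. PRK over CHLM differed by 0.34 between light and dark (95% interval -0.23 to 0.91, exact permutation adjusted p 0.328), higher in 5 of 6 sample numbers. PRK over AT1G74470 differed by 0.23 (-0.13 to 0.58, exact permutation adjusted p 0.328), higher in 4 of 6. SBPASE over AT1G74470 differed by -0.26 (-0.66 to 0.13, exact permutation adjusted p 0.328) and was lower in light in 5 of 6 sample numbers. For SBPASE over CHLM the difference was -0.15 (-0.52 to 0.19, exact permutation adjusted p 0.444). For the 2 chlorophyll synthesis genes, CHLM over AT1G74470, it was -0.11 (-0.65 to 0.43, exact permutation adjusted p 0.636). These intervals are wide, and they do not show that the genes of a pair changed alike.

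The sizes of these 5 differences depended on the samples used, and none passed in any setting. Without light 1 and 2, PRK over CHLM was 0.54, PRK over AT1G74470 was 0.26 and SBPASE over AT1G74470 was -0.31. SBPASE over CHLM was then -0.03 and CHLM over AT1G74470 was -0.29, so the order of the smaller differences turned. Without numbers 1 and 2 of both groups the ratio of PRK over CHLM was 0.63 and that of PRK over AT1G74470 was 0.42. With 1 sample left out, PRK over CHLM ran from 0.18 (without light 5) to 0.46 (without dark 1). PRK over AT1G74470 ran from 0.14 (without dark 5) to 0.33 (without dark 1). CHLM over AT1G74470 ran from -0.25 (without dark 5) to -0.01 (without light 5), with values from -0.05 to -0.02 without dark 2, dark 3, dark 4 or light 6 and from -0.19 to -0.17 without dark 6, light 1 or light 2. SBPASE over CHLM was -0.24 without dark 2 and -0.10 without light 2.

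**Figure D3:**
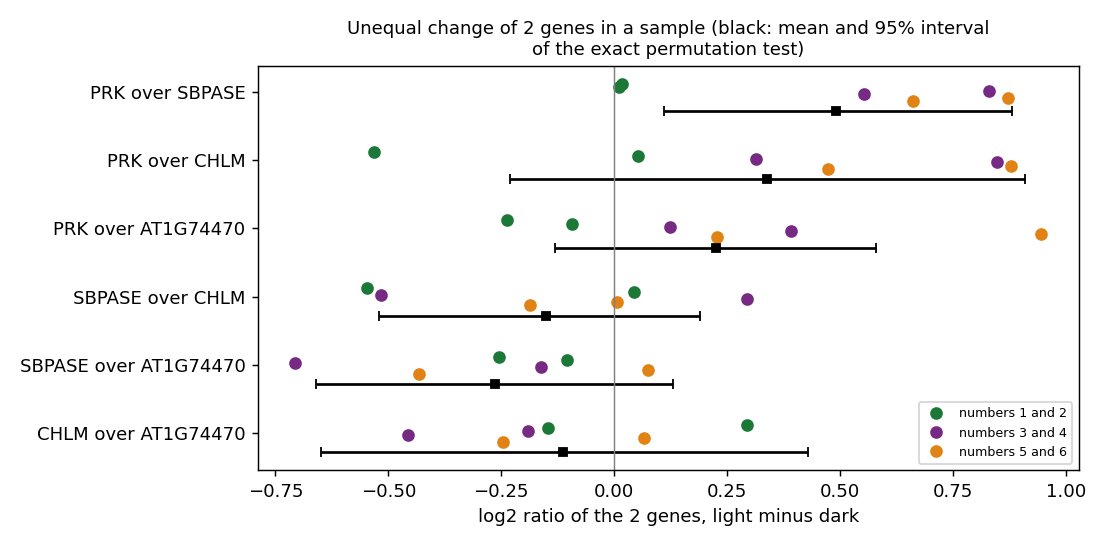
Log2 ratio of 2 genes within a sample, light minus dark (horizontal axis), for the 6 pairs of the 4 genes. Coloured points are the 6 sample numbers, and black squares with bars give the mean and the 95% interval of the exact permutation test. For PRK over SBPASE the points of numbers 1 and 2 lie at 0.02 and 0.01, and those of numbers 3 to 6 between 0.55 and 0.87.

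Few other genes of the pathways could be read. Of 24 listed Calvin cycle loci, PRK and SBPASE were the 2 on single-gene probes, 1 more was only on probes with several genes, and 21 were on no annotated probe. Of 29 listed loci of chlorophyll synthesis, 3 were on single-gene probes, 4 only on probes with several genes, and 22 on no annotated probe. The third single-gene probe belonged to HEMA3, of the glutamyl-tRNA reductase family that starts the pathway. HEMA3 had a log2 change of 0.09 ± 0.11 (95% CI -0.14 to 0.33, limma adjusted p 0.675). That value was 0.02 without dark 3 and 0.04 without light 1 and 2. With limma, 0 of 2 Calvin cycle and 0 of 3 chlorophyll synthesis genes passed the test, and 1 and 0 had an unadjusted p under 0.05. The probes with several genes that hold a listed locus, 2 for each list, did not pass either, and no gene is named from them.

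Likeness of profile was measured as the root mean square difference between log2 profiles over the 12 samples, each centred on its own mean, among 633 single-gene probes above 0 in every sample. PRK was closest to AT1G73470 (0.13), AT2G39100 (0.18) and AT4G07670 (0.18), where its median difference from all such probes was 0.38. Their log2 changes were 0.38, 0.51 and 0.20. The 3 genes were higher in light in 6 of 6 sample numbers, a direction that the choice by likeness to PRK largely fixes. Of them AT2G39100 passed the test over all probes (limma adjusted p 0.0276), though not without light 1 and 2 (limma adjusted p 0.0757), with sample pairs as a random block (limma adjusted p 0.283), with pairs averaged (limma adjusted p 0.804) or without scaling (limma adjusted p 0.426). When single samples were left out, AT2G39100 passed in 4 of 12 fits.

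SBPASE was closest to AT3G20920 (0.13), AT1G54500 (0.14) and AT1G74070 (0.15). CHLM was closest to AT3G21810 (0.11), AT1G51080 (0.16) and AT1G06510 (0.18). AT1G74470 was closest to AGL26 (AT5G26880; 0.10), AT4G01310 (0.12), a plastid ribosomal protein gene, and AT3G26580 (0.12). Of these 12 closest genes 5 were still among the 3 closest when light 1 and 2 were left out, a setting chosen after the data were seen. The median difference from all such probes was 0.34 for SBPASE, 0.39 for CHLM and 0.32 for AT1G74470. Among the 4 genes themselves the difference ran from 0.25 between SBPASE and CHLM to 0.44 between PRK and CHLM.

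The treatment of sample pairs set the width of the intervals. With pairs of numbers as a random block, the PRK change of 0.35 had a 95% CI of -0.13 to 0.83 (limma adjusted p 0.676), and with pairs averaged it ran from -0.05 to 0.74 (limma adjusted p 0.820). In both settings the interval included 0. For AT1G74470 these intervals were -0.14 to 0.38 and -0.29 to 0.53. With averaged pairs CHLM had the widest interval of the 4 genes, -0.65 to 0.66.

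**Figure D4:**
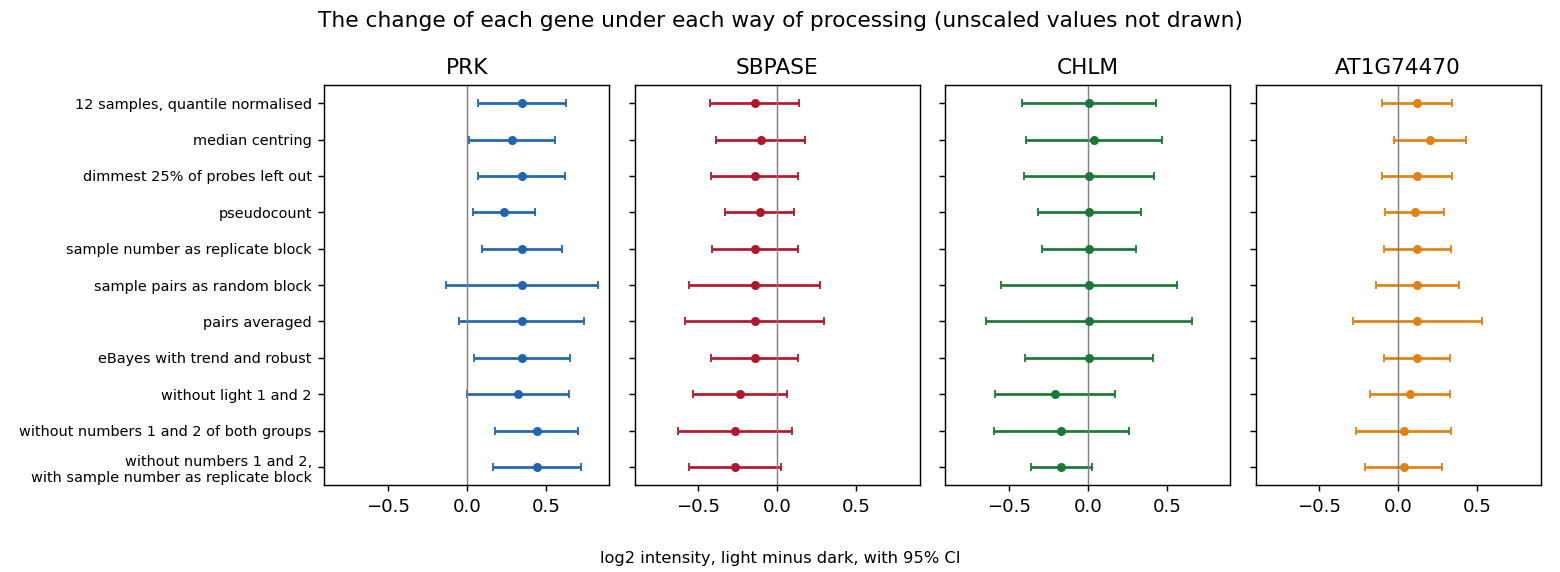
Log2 intensity in light minus dark (horizontal axis) with its 95% CI from limma, for the 4 genes under each way of processing (rows), leaving out unscaled values and the fits without a single sample. The PRK estimates lie between 0.24 and 0.44 and those of SBPASE between -0.27 and -0.11, while CHLM runs from -0.21 to 0.04 and AT1G74470 from 0.04 to 0.20.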

How the data were processed

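The deposited values are spot intensities on a linear scale, by the values themselves: none is below 0, and 10 of 12 samples have a maximum of 100. The authors' scanner, background treatment, scaling and genome build were not given in the sources used here. Samples were grouped by title. Of 3439 probes, 58 at 0 in every sample were left out. In the other 3381 (188 had some zeros) a 0 was replaced by the smallest value above 0 of that sample, log2 was taken and samples were quantile normalised. The test was limma (version 3.58.1, R version 4.3.3), with lmFit and eBayes, two-sided and without a block. The threshold was 0.05 for p-values adjusted by Benjamini-Hochberg over the tested probes. The code was tested on simulated data. Genes come from the platform annotation and RefSeq names of TAIR10.1. Since the array's build is unknown, no coordinates are printed, and no sequences were used. The number of samples limits the precision.

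The 4 genes, the lists and the tests were chosen with earlier results of these data known. Named genes were these 4, other listed loci on single-gene probes, and for each of the 4 the 3 closest profiles. Deviations from group means correlated at 0.337 to 0.492 between same-numbered samples, highest for the same number in every dark sample. The labels state no pairing, so the sample number was used as a block in an alternative and not in the main test. Alternatives were other scalings, filters, a pseudocount of 0.223, blocks, averaged pairs and left-out samples. Ratios were tested in Python 3.11.15 over 924 splits, with intervals from shifts in steps of 0.01.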

Additional observations from a re-analysis of the deposited data

How the results depend on the processing

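In none of these settings did any of the 4 genes pass the test over all probes. Without scaling, the median change of all probes was 0.78 and SBPASE turned to 0.65, still below that median; 2 probes were called, against 96. CHLM turned to -0.21 without light 1 and 2, and to -0.17 without numbers 1 and 2, with or without the replicate block. With the sample number as a replicate block, PRK had 0.35 (limma adjusted p 0.114) and PRK over SBPASE 0.49 (exact sign-flip adjusted p 0.188, smallest unadjusted p 0.0313). No call changed for the 4 genes or their ratios, and 116 probes were called over the array. The count of called probes was 16 with the random block, 1 with pairs averaged and 50 without numbers 1 and 2 with the replicate block. The last setting, the ratios without numbers 1 and 2, and the alternatives for HEMA3 and the closest profiles were chosen after the data were seen. AT1G73470 (limma adjusted p 0.0905 with all 12 samples) had 0.0348 without numbers 1 and 2, but 0.0618 there with the replicate block, 0.483 with the random block and 0.804 with pairs averaged.

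Leaving out each sample gave 0.30 to 0.44 for PRK, -0.20 to -0.09 for SBPASE (-0.09 without light 5 or light 6), -0.09 to 0.12 for CHLM and 0.08 to 0.18 for AT1G74470, with 46 to 85 called probes. PRK came nearest to the threshold without dark 1 (limma adjusted p 0.0607). The count was 46 without dark 3, 51 without dark 4, 59 without light 5 and 56 without light 6. CHLM turned to -0.02 without dark 1 or light 3, -0.07 without dark 5 or light 1, -0.01 without dark 6 and -0.089 without light 2. PRK over SBPASE ran from 0.39 to 0.58. The cause was not tested, except that averaging or leaving out samples also leaves fewer degrees of freedom. Signal over background is unknown.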
